A study of Mus musculus with 16 samples.

Results

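The 36 genes described here encode the proteins that carry a cell through mitosis: the kinase CDK1 with its cyclins, the polo and Aurora kinases, the spindle checkpoint, the kinetochore, the spindle motors and the machinery of anaphase and cytokinesis. They were taken by gene symbol from the 24421 genes counted in 16 RNA sequencing libraries of mouse embryo heads, by the list of symbols and not by a cutoff on any measured value. All 36 symbols were present, and all 36 passed the filter (10 counts or more in 4 libraries or more), as did 14514 of the 24421 genes (59.4%).

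The libraries came from heads of embryos at day 8.5, dissected between the first branchial arch and the region of the otic vesicle, after the mice had been kept on a folic acid diet for 3 generations. The series set homozygous Ift88-null embryos against wild type embryos on both diets, and its title concerns harm to cilia from added folic acid. Ift88 encodes a subunit of the intraflagellar transport trains that build the cilium. The 4 groups held 4 libraries each: Ift88-null embryos on the enriched diet of 10 ppm folic acid (enriched mutants), wild type embryos on that diet (enriched wild types), Ift88-null embryos on the moderate diet of 2 ppm (moderate mutants) and wild type embryos on that diet (moderate wild types). All groups were third-generation embryos. The mouse strain, the form of the null allele and the litter of each embryo are not given in the sources used here. A p-value here therefore refers to the spread among these libraries, whatever their litters.

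Entry into mitosis follows from the activation of CDK1 by cyclin B. The polo-like and Aurora kinases then build the spindle, the checkpoint holds the cell until every kinetochore has bound microtubules, and the anaphase promoting complex with its activator CDC20 marks securin and cyclin B for destruction. Most of these genes are transcribed mainly in G2 and mitosis, through promoters with a cell cycle genes homology region (CHR) and CCAAT boxes, so that their RNA in a tissue follows the share of cells in those phases as well as the level in each cell. The neural plate and head mesenchyme of the early embryo are rapidly dividing tissues. In whole heads, fewer cells in mitosis and less RNA per mitotic cell cannot be told apart.

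Library totals ran from 19249433 to 44267434 counts. Ift88, on chromosome 14, was measured at 2.99, 8.61, 2.86 and 5.25 CPM (counts scaled to a common library total) in the enriched mutants, against 18.98, 20.7, 17.9 and 20.8 CPM in the enriched wild types. The moderate mutants had 3.35, 6.44, 2.01 and 3.44 CPM of Ift88, against 19.9, 9.30, 20.9 and 20.7 CPM in the moderate wild types, so moderate wild type 2 lay nearer to the mutants than the other 7 wild types did. In 3 libraries (moderate mutants 1 and 2 and moderate wild type 2) the counts of sex-linked genes contradicted the sex on the label. Of 16 head and neural tube markers, 15 passed the filter (the exception was Hoxb1), and their summed level was 941 to 1094 CPM in enriched mutants, 912 to 971 in enriched wild types, 938 to 1142 in moderate mutants and 903 to 960.0 in moderate wild types. In the test used below, 5 of the 15 were higher and 0 lower in enriched mutants (33.3% higher, against 14.4% of all genes). In moderate mutants 2 were higher and 0 lower (13.3%, against 4.79%), and over both diets 6 and 0 (40%, against 17.4%). Of 20 hypoxia and glycolysis genes, 19 were higher and 0 lower in mutants on each diet. This was 95%, against 14.4% of all genes on the enriched diet and 4.79% on the moderate diet. That list was chosen with earlier results of these data known. Median log2 fold changes were 1.30 and 1.22, with the smallest at 0.19 and 0.15. Over these genes moderate mutant 3 had a mean log2 deviation from the 16-library mean of -0.11. The other 7 mutants had 0.84 to 1.16 and the wild types -1.11 to -0.49. Summed erythroid markers, of which 13 of 15 passed the filter and Hba-a1 was at 0 in every library, came to 736 to 3621 CPM in enriched mutants, 1552 to 3886 in enriched wild types, 1269 to 3442 in moderate mutants and 2511 to 6624 in moderate wild types.

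The promoters shown are those of the 5 genes with the smallest p for genotype over both diets, among those with an entry in the RefSeq promoter table. Of these genes 3 were higher and 2 lower in mutants. All 5 promoters carry both a CHR and a CCAAT box, as do 20 of the 30 mitosis promoters in that table. Each sequence runs 5′ to 3′ on the strand of its gene, from 250 bases before to 50 bases after the annotated start, in build GRCm38.p6. Capitals mark every match, on either strand, to a CHR (TTTGAA or TTCGAA) or a CCAAT box (CCAAT), and distances are those of a match's first base. Psrc1 lies at chr3:108383554-108383853 (plus strand), Bub1 at chr2:127831810-127832109 (minus strand), Ect2 at chr3:27153829-27154128 (minus strand), Aurka at chr2:172370521-172370820 (minus strand) and Cdc20 at chr4:118437294-118437593 (minus strand).
Psrc1: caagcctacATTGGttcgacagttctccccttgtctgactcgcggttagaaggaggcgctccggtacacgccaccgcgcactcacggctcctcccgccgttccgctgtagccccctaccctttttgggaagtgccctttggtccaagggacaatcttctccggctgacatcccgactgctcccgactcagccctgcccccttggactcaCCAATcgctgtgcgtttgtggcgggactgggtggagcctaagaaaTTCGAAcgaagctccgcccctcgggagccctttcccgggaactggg
Bub1: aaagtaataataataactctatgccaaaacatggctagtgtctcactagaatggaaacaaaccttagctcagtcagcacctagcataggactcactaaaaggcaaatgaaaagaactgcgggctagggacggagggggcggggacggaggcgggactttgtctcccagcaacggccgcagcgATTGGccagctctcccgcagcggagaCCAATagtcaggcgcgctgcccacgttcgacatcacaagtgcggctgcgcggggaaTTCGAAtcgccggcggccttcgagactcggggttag
Ect2: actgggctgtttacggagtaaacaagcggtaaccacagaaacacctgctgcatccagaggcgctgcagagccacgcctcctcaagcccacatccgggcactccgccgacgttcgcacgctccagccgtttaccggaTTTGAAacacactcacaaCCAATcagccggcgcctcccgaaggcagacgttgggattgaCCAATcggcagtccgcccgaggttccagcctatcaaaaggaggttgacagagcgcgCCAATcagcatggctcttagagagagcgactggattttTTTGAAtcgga
Aurka: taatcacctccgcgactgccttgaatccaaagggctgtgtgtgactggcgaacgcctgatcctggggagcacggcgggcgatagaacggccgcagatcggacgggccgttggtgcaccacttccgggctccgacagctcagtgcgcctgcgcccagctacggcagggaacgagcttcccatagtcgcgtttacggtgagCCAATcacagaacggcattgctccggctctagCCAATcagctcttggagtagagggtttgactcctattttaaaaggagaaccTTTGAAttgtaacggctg
Cdc20: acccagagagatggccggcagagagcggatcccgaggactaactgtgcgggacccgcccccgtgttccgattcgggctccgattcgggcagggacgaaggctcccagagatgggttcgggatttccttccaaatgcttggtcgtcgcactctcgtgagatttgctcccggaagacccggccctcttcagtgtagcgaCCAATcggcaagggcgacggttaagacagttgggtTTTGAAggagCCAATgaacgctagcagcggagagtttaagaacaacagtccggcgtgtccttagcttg

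In the Psrc1 promoter a CCAAT box lay 41 bases before the start, followed by a CHR 5 bases after it, and a further CCAAT box stood 241 bases before the start. The Bub1 promoter had CCAAT boxes 68 and 42 bases before the start and a CHR 15 bases after it. The Aurka promoter had them 51 and 19 bases before and a CHR 33 bases after, while in Cdc20 the CHR lay 18 bases before the start between CCAAT boxes at 53 and 8 bases before it. Ect2 had 2 CHR matches and 3 CCAAT boxes. The table held a promoter for 30 of the 36 genes. A CHR was found in 23 of these 30 (76.7%) and in 13.1% of the 10893 promoters of all genes tested, and a CCAAT box in 22 (73.3%) and in 38.5%. An E2F site (TTTGGCGC, TTTCCCGC, TTTCGCGC or TTTGCCGC) was found in 1 of the 30 (3.33%), that of Cdk1, and in 3.94% of all promoters. Both a CHR and a CCAAT box were present in 20 of the 30, and none of the 3 motifs in 5 (Nuf2, Nusap1, Mad2l1, Pttg1 and Birc5). In 2 promoters, those of Ube2c and Cdca8, motif matches overlapped each other. These matches describe the letters in the window and were not tested as binding sites.

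Mitosis genes were abundant, and most of them varied little between the libraries of a group. Together they took up 0.589 to 0.707% of the counts of a library, and single values rested on 478 to 39241 counts. Their median level was 157 CPM, against 24.4 CPM over all genes tested. Per kilobase of transcript, Cenpa, the histone H3 variant of the centromere, had the highest mean level (173 CPM per kilobase), followed by the DNA untangling enzyme Top2a (166), the chromosomal passenger subunit Cdca8 (135) and Cdc20 (129). The lowest levels per kilobase were those of Espl1 (23.4), Cdc25c (19.6) and Cenpe (19.3). The median SD within groups was 0.12 on the log2 scale, against 0.17 over all genes tested. The 2 sets were not matched for level, and mean levels of all genes reached down to 0.187 CPM. The difference in SD cannot be told apart from the difference in level. Across the 36 genes, the median coefficient of variation was 9.40% in enriched mutants, 7.12% in enriched wild types, 10.3% in moderate mutants and 3.82% in moderate wild types. Both mutant groups thus spread more than the wild types of the same diet, and the moderate wild types were the most uniform group.

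**Figure D1:**
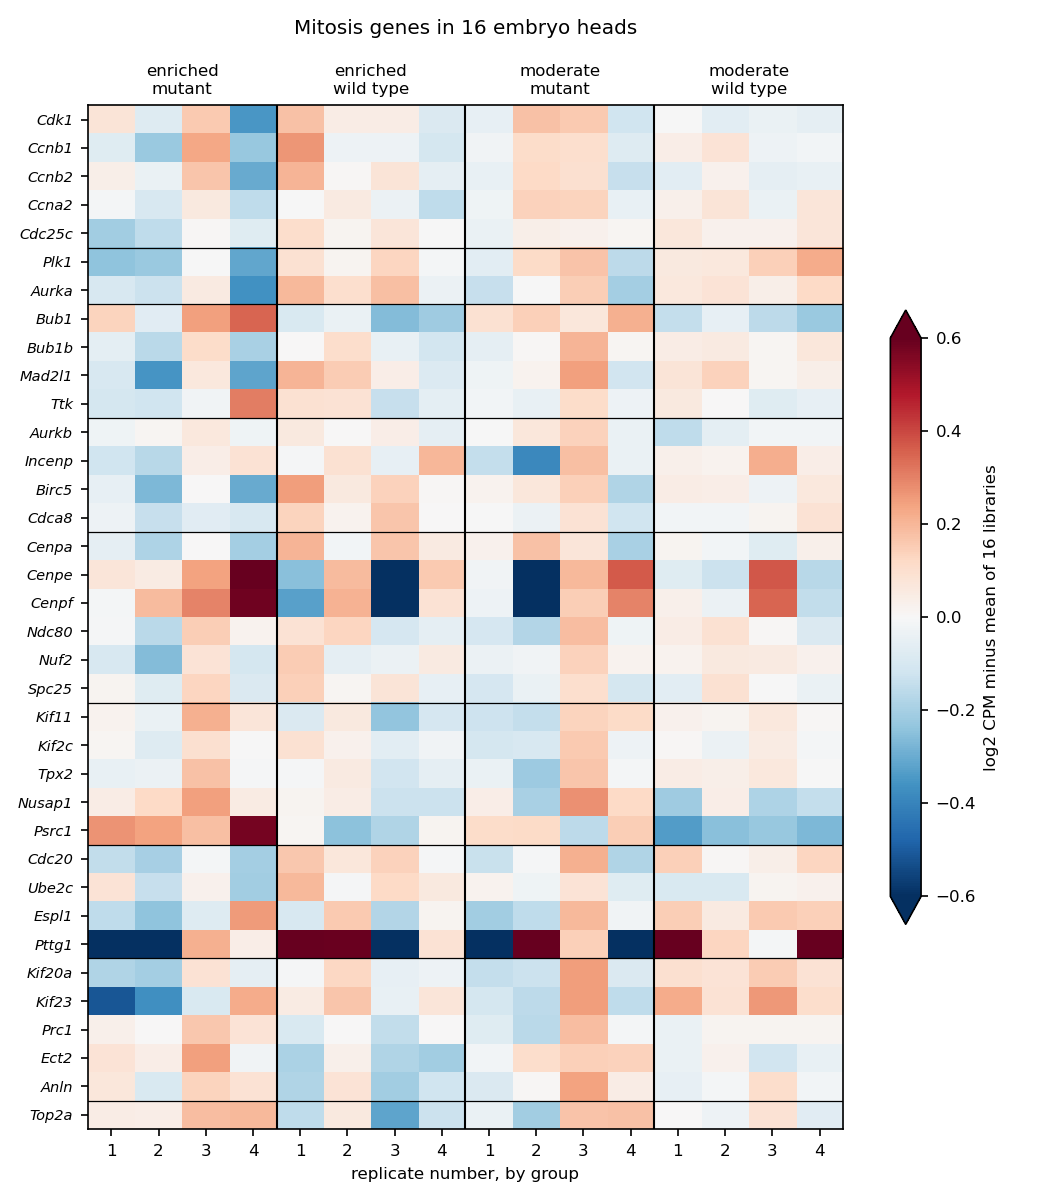
Level of the 36 mitosis genes in the 16 libraries, as log2 CPM minus the mean of all 16 libraries, with genes grouped by role (rows) and libraries by group and replicate number (columns). The scale is limited to 0.6 in either direction, which Pttg1, Cenpe and Cenpf pass in several libraries, and moderate mutant 3 is above its group mean for 34 of the 36 genes.

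On the enriched diet, mutant heads had higher RNA of the microtubule protein Psrc1, the checkpoint kinase Bub1 and the cytokinesis factor Ect2, and lower RNA of the kinases Plk1 and Aurka, the checkpoint protein Mad2l1, survivin (Birc5), Cenpa and Cdc20. These 9 of the 36 genes (25.0%) passed an adjusted p of 0.05, 3 higher and 6 lower, in an edgeR quasi-likelihood test with Benjamini-Hochberg adjustment over all 14514 genes, where 31.2% of all genes passed (14.4% higher and 16.8% lower). The share of mitosis genes called lower, 16.7%, was near that of all genes, and the share called higher was 8.33%. With 1 library left out the count of 9 ran from 3 to 10, and the difference in share from all genes was not tested. The 9 differences were small, from 0.816 times the wild type level for Mad2l1 to 1.37 times for Psrc1. Over the 36 genes the median log2 fold change was -0.080, against -0.0054 over all genes tested, with 24 negative and 12 positive values.

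On the moderate diet, 1 of the 36 genes (2.78%) passed the same test, Psrc1, again higher in mutants, where 7.62% of all genes passed (4.79% higher and 2.83% lower). The median log2 fold change was -0.016, against -0.0098 over all genes tested, with 22 negative and 14 positive values. Averaged over both diets, 8 genes passed (22.2%, against 35.8% of all genes): Psrc1, Bub1, Ect2 and Nusap1 were higher and Plk1, Aurka, Mad2l1 and Cdc20 lower, with a median of -0.044 against -0.011. Signs matched on the 2 diets for 24 of the 36 genes, and 29 had the larger absolute log2 fold change on the enriched diet. The same counts over all genes are not given here, so these 2 have no background beside them. At an unadjusted p under 0.05, 12 of the 36 genes passed on the enriched diet and 4 on the moderate diet, against 42.9% and 23.4% of all genes. Without moderate mutant 3, moderate wild type 2 and enriched mutant 3, whose hypoxia, Ift88 or decidual values stood apart, 8 mitosis genes passed on the enriched diet, 1 on the moderate diet and 10 over both diets, while of all genes 4322, 1628 and 5091 passed, against 4524, 1106 and 5202 with all 16 libraries. Without the 3 libraries of contradicted sex label, the counts of mitosis genes were 6, 0 and 4, the last all higher in mutants, and those of all genes 3825, 105 and 2964.

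**Figure D2:**
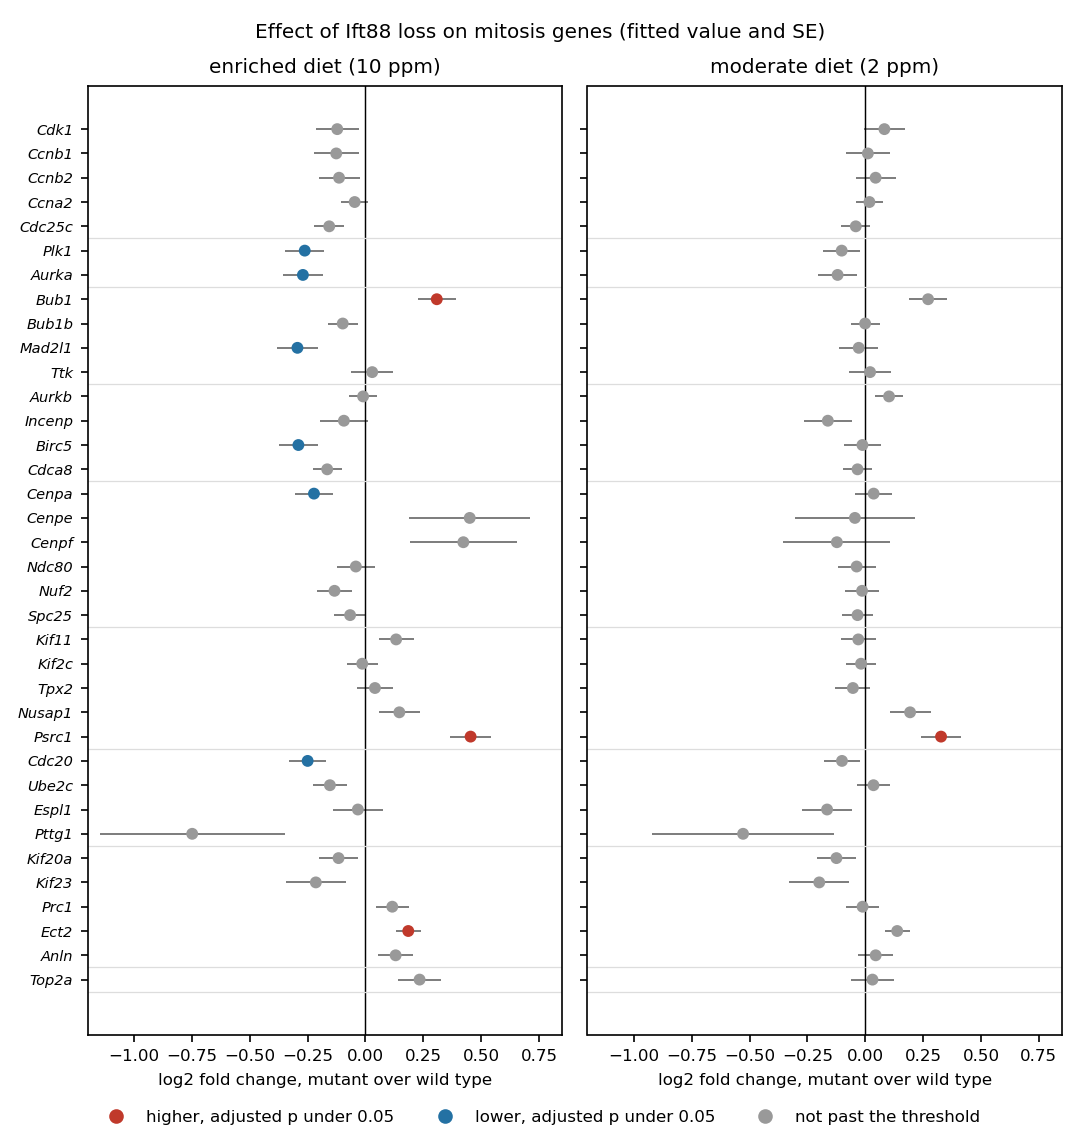
Log2 fold change of mutants over wild types for each mitosis gene, fitted by edgeR, on the enriched diet (left) and the moderate diet (right), with bars of 1 SE. Red and blue mark genes past an adjusted p of 0.05, 9 on the enriched diet and 1 on the moderate diet, and the widest bars are those of Cenpe, Cenpf and Pttg1.

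Of CDK1, its cyclins and its activating phosphatase, none of the 5 genes passed on either diet. Cdk1, the kinase that starts mitosis, had 227, 204, 239.9 and 169 CPM in the enriched mutants, against 243, 222, 222 and 202 CPM in the enriched wild types. Enriched mutant 4 was the lowest of the 16 libraries, and the groups overlapped. The log2 fold change was -0.12 ± 0.092 (SE) on the enriched diet (adjusted p = 0.33, edgeR quasi-likelihood test) and 0.083 ± 0.090 on the moderate diet (adjusted p = 0.632). The B cyclins Ccnb1 and Ccnb2, which activate CDK1, and cyclin A2 (Ccna2), which acts from S phase into early mitosis, had log2 fold changes of -0.13, -0.11 and -0.047 on the enriched diet and 0.011, 0.045 and 0.018 on the moderate diet. Cdc25c, the phosphatase that removes inhibitory phosphates from CDK1, had 33.0, 34.3, 38.2 and 36.3 CPM in the enriched mutants, against 41.0, 38.5, 40.0 and 38.0 CPM in the enriched wild types. Its log2 fold change was -0.16 ± 0.064 on the enriched diet, with an adjusted p of 0.0728 in the edgeR quasi-likelihood test, and -0.041 ± 0.063 on the moderate diet.

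Both kinases that build the spindle poles were lower in enriched mutants. Plk1, polo-like kinase 1, which promotes centrosome maturation and mitotic entry, had 176, 178, 208 and 167 CPM in the enriched mutants, against 222, 210.4, 227 and 206 CPM in the enriched wild types. Of the mutants, only enriched mutant 3 reached the range of the wild types. Its level in mutants was 0.834 times that of wild types (log2 fold change -0.26 ± 0.083, adjusted p = 0.0256, edgeR quasi-likelihood test). Aurka, Aurora kinase A, which acts at centrosomes and spindle poles, had 147, 144, 163 and 122 CPM in the enriched mutants, against 180.1, 169, 178 and 154 CPM in the enriched wild types, and again enriched mutant 3 lay inside the wild type range while enriched mutant 4 was lowest. The ratio was 0.829 (log2 fold change -0.27 ± 0.086, adjusted p = 0.026). Neither passed on the moderate diet, with -0.10 ± 0.081 for Plk1 and -0.12 ± 0.084 for Aurka on the log2 scale. Both calls ended without any one of enriched mutants 1, 2 and 4 and enriched wild types 1 and 3, with adjusted p-values of 0.0766 to 0.104 for Plk1 and 0.0544 to 0.104 for Aurka. Both also ended with no count filter (adjusted p = 0.0521 for Plk1 and 0.0525 for Aurka), with only the groups compared (0.0543 and 0.0707) and without the 3 libraries of contradicted sex label (0.0522 and 0.0596), and that of Aurka with no sex covariate (0.0528). Averaged over both diets Plk1 fell by 0.18 and Aurka by 0.19 on the log2 scale (adjusted p = 0.0231 and 0.0194). In the averaged comparison the Plk1 call ended without any one of 7 libraries (enriched mutants 1 and 2, enriched wild types 1 and 3, moderate mutant 1 and moderate wild types 3 and 4, adjusted p 0.0516 to 0.0778), and the Aurka call without enriched wild type 3 or moderate mutant 1 (adjusted p 0.0519 to 0.0585). Both averaged calls ended without the contradicted libraries (adjusted p = 0.0764 for Plk1 and 0.0995 for Aurka), and that of Plk1 with no count filter (0.0534).

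Of the 4 spindle checkpoint genes, Bub1 was higher and Mad2l1 lower in enriched mutants, and none passed on the moderate diet. Bub1, a checkpoint kinase at kinetochores, had 233, 203, 252 and 271 CPM in the enriched mutants, against 199, 206, 177 and 183 CPM in the enriched wild types, and 226, 235, 223 and 247 CPM in the moderate mutants, against 192, 206, 191 and 182 CPM in the moderate wild types. All 4 moderate mutants were above all 4 moderate wild types, and on the enriched diet only enriched mutant 2 was within the wild type range. Bub1 rose to 1.24 times the wild type level on the enriched diet (log2 fold change 0.31 ± 0.082, adjusted p = 0.0106, edgeR quasi-likelihood test), a call that ended without enriched mutant 4 (adjusted p = 0.0529). Its log2 fold change on the moderate diet was 0.27 ± 0.081, with an adjusted p of 0.0505 that fell just outside the threshold, and it passed with median-of-ratios scaling, DESeq2, no count filter or only the groups compared (adjusted p 0.02 to 0.0486). Over both diets it was 0.29 ± 0.058 (adjusted p = 0.00123), which stayed past the threshold in all 28 alternatives. Mad2l1, the checkpoint protein that binds and restrains CDC20, had 152, 128, 171 and 131 CPM in the enriched mutants, against 188, 181, 168 and 154 CPM in the enriched wild types. Enriched mutants 2 and 4 were the lowest of the 16 libraries, and enriched mutant 3 was inside the wild type range. Mad2l1 fell by 0.29 ± 0.087 on the log2 scale (adjusted p = 0.0187), a call that ended without any one of enriched mutants 2 and 4 and enriched wild types 1 and 3 (adjusted p 0.0538 to 0.0954) and with no sex covariate (adjusted p = 0.063). The Mad2l1 value on the moderate diet was -0.028 ± 0.085. Its call over both diets, at an adjusted p of 0.0493, held only without enriched mutant 3, enriched wild type 4 or moderate mutant 3 among the 16 fits that left out 1 library (adjusted p 0.0689 to 0.145 in the other 13), and it ended in 6 of the other 12 alternatives (adjusted p 0.0597 to 0.174). Bub1b, which with MAD2 forms the checkpoint inhibitor of CDC20, and the kinase Ttk, which starts checkpoint signalling, did not pass, with log2 fold changes of -0.098 and 0.029 on the enriched diet and -0.00063 and 0.021 on the moderate diet.

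**Figure D3:**
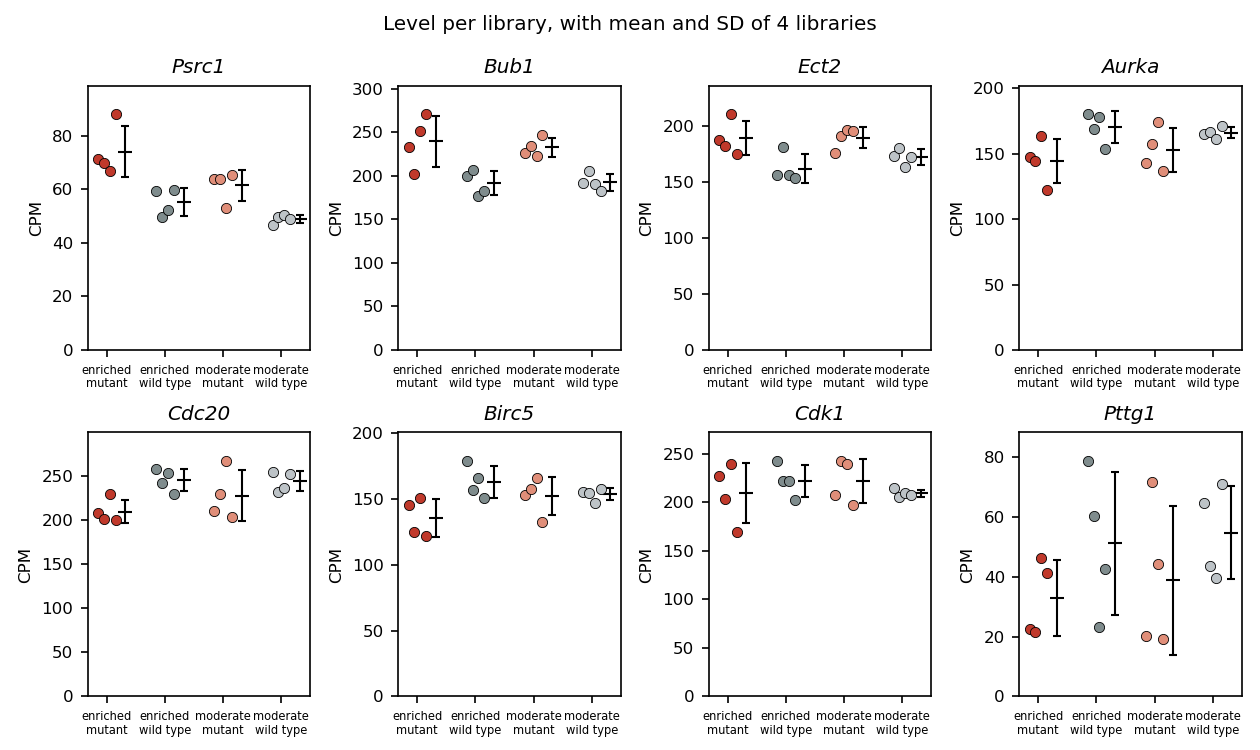
Level of 8 mitosis genes in each library (CPM, axes from 0), with the mean and SD of the 4 libraries of each group beside the points. Psrc1, Bub1 and Ect2 are higher in mutants, Aurka, Cdc20 and Birc5 are lower in enriched mutants, Cdk1 overlaps in all groups and Pttg1 spreads widely inside each group.

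In the chromosomal passenger complex, which corrects faulty kinetochore attachments and later acts in cytokinesis, 1 of 4 subunits passed. Birc5 (survivin) had 145, 125, 151 and 122 CPM in the enriched mutants, against 179, 157, 166 and 151 CPM in the enriched wild types. All 4 enriched mutants were below all 4 enriched wild types, though enriched mutant 3 and enriched wild type 4 differed by less than 1 CPM. Birc5 fell by 0.29 ± 0.083 on the log2 scale (adjusted p = 0.016, edgeR quasi-likelihood test), a call that ended without any one of enriched mutants 2 and 4 and enriched wild types 1 and 3 (adjusted p 0.0589 to 0.0794). For moderate mutants over wild types the Birc5 value was -0.012 ± 0.081. Cdca8 (borealin) had 191, 177, 186 and 182 CPM in the enriched mutants, against 214, 198, 219 and 196 CPM in the enriched wild types, again with no overlap, but its log2 fold change of -0.17 ± 0.063 did not pass (adjusted p = 0.0563). Without enriched wild type 4 or without moderate mutant 4, it did pass (adjusted p = 0.0425 and 0.0417). The scaffold Incenp and the kinase Aurkb had log2 fold changes of -0.093 ± 0.10 and -0.010 ± 0.060 on the enriched diet, and -0.16 ± 0.10 and 0.10 ± 0.059 on the moderate diet.

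Among the 6 centromere and kinetochore genes, Cenpa passed on the enriched diet, with 150.1, 137, 156 and 135 CPM in the enriched mutants, against 179, 154, 175 and 162 CPM in the enriched wild types. Its log2 fold change of -0.22 ± 0.081 (adjusted p = 0.0475, edgeR quasi-likelihood test) lay closest to the threshold of the 9 calls, and leaving out any library except enriched wild type 2 or moderate mutant 4 ended the call (14 of 16 fits, adjusted p 0.0551 to 0.176), as did 8 of the other 13 alternatives (adjusted p 0.0529 to 0.191). For Cenpa on the moderate diet it was 0.036 ± 0.079. The kinesin Cenpe, which carries chromosomes towards the spindle equator, and the large kinetochore protein Cenpf varied widely and together. Cenpe had 154, 152, 174 and 252 CPM in the enriched mutants, against 123, 167, 87.4 and 163 CPM in the enriched wild types, and 144, 71.4, 168 and 189 CPM in the moderate mutants, against 139.5, 134, 189.6 and 131 CPM in the moderate wild types. Cenpf had 282, 324, 349 and 425 CPM in the enriched mutants, against 226, 328, 179.5 and 302 CPM in the enriched wild types, and 278, 144, 314 and 349 CPM in the moderate mutants, against 289.6, 277, 362 and 256 CPM in the moderate wild types. In both genes enriched mutant 4 was the highest of the 16 libraries and moderate mutant 2 the lowest, with enriched wild type 3 next to it. The log2 fold changes on the enriched diet, 0.45 ± 0.26 for Cenpe and 0.42 ± 0.23 for Cenpf, were among the largest of the 36 genes but did not pass (adjusted p = 0.198 and 0.174). The microtubule-binding NDC80 complex members Ndc80, Nuf2 and Spc25 had log2 fold changes of -0.042, -0.13 and -0.066 on the enriched diet and of -0.037, -0.014 and -0.033 on the moderate diet, none past the threshold.

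Psrc1, which binds microtubules and helps chromosomes to the spindle equator, was the one mitosis gene that passed on both diets. It had 71.2, 69.7, 66.9 and 88.0 CPM in the enriched mutants, against 59.5, 49.8, 52.1 and 59.6 CPM in the enriched wild types, so that every enriched mutant was above every enriched wild type. In the moderate groups it had 63.7, 63.9, 52.9 and 65.4 CPM in the moderate mutants, against 46.8, 49.7, 50.4 and 49.0 CPM in the moderate wild types, again without overlap, with moderate mutant 3 the lowest of the mutants. Psrc1 rose to 1.37 times the wild type level on the enriched diet (log2 fold change 0.45 ± 0.087, adjusted p = 0.00163, edgeR quasi-likelihood test) and 1.25 times on the moderate diet (0.33 ± 0.086, adjusted p = 0.0283). The enriched call held in all 29 alternatives. The moderate call ended without any one of moderate mutants 1, 2 and 4 or any one of the 4 moderate wild types (adjusted p 0.0542 to 0.109), while the log2 fold change stayed between 0.28 and 0.36. It also ended with only the groups compared (adjusted p = 0.0512) and without the 3 libraries of contradicted sex label (adjusted p = 0.367). Nusap1, which bundles spindle microtubules, passed only over both diets, with a log2 fold change of 0.17 ± 0.063 (adjusted p = 0.045), and this call ended in 11 of the 16 fits that left out 1 library (adjusted p 0.0515 to 0.0731), holding without enriched mutant 1, enriched wild type 1 or 2, moderate mutant 2 or moderate wild type 2. It ended as well with limma-voom (adjusted p = 0.0513) and with sex read from the counts (adjusted p = 0.0776). The motor Kif11, which pushes spindle poles apart, the microtubule depolymerase Kif2c and the spindle assembly factor Tpx2 had log2 fold changes of 0.13, -0.014 and 0.041 on the enriched diet and of -0.030, -0.018 and -0.053 on the moderate diet.

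Of the 4 anaphase genes, Cdc20 passed on the enriched diet. This activator of the anaphase promoting complex had 208, 201, 229 and 200.3 CPM in the enriched mutants, against 258, 242, 254 and 229 CPM in the enriched wild types, and 211, 229.5, 267 and 204 CPM in the moderate mutants, against 255, 232, 237 and 253 CPM in the moderate wild types. Its highest enriched mutant, at 229 CPM, lay just under its lowest enriched wild type, while moderate mutant 3 exceeded every moderate wild type. Cdc20 fell by 0.25 ± 0.080 on the log2 scale on the enriched diet (adjusted p = 0.0268, edgeR quasi-likelihood test), and the moderate value was -0.10 ± 0.078. Leaving out any one of enriched mutants 1, 2 and 4, enriched wild types 1 and 3, moderate mutant 1 and moderate wild types 1 and 3 ended the enriched call (adjusted p 0.0521 to 0.102), as did no count filter, only the groups compared and the absence of the contradicted libraries (adjusted p 0.0518 to 0.0592). Over both diets Cdc20 fell by 0.18 (adjusted p = 0.023), a call that ended without any one of enriched mutants 1 and 2, enriched wild types 1 and 3, moderate mutant 1 and moderate wild types 1 and 4 (adjusted p 0.052 to 0.0864), with no count filter (0.0579) or without the contradicted libraries (0.106). Pttg1 (securin), which holds separase in check until anaphase, had 22.6, 21.4, 46.2 and 41.0 CPM in the enriched mutants, against 78.6, 60.1, 23.1 and 42.4 CPM in the enriched wild types, and 20.1, 71.6, 44.1 and 19.1 CPM in the moderate mutants, against 64.7, 43.6, 39.5 and 71.0 CPM in the moderate wild types. Its within-group SD of 0.69 on the log2 scale was the largest of the 36 genes, libraries spread widely in every group, and its log2 fold changes of -0.75 ± 0.40 and -0.53 ± 0.39 did not pass. Over both diets the Pttg1 value was -0.64 ± 0.28 (adjusted p = 0.0874), and it passed without enriched mutant 4 (adjusted p = 0.0408) or without moderate mutant 2 (adjusted p = 0.0245). The ubiquitin-conjugating enzyme Ube2c and separase (Espl1), which cuts cohesin, had log2 fold changes of -0.15 and -0.033 on the enriched diet and 0.035 and -0.16 on the moderate diet.

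Of the genes of the spindle midzone and cytokinesis, Ect2 passed on the enriched diet. Ect2, the exchange factor that activates RhoA at the division plane, had 188, 183, 211 and 175 CPM in the enriched mutants, against 156, 182, 157 and 154 CPM in the enriched wild types, and 176, 191, 197 and 196 CPM in the moderate mutants, against 173, 181, 164 and 172 CPM in the moderate wild types. Enriched wild type 2 was higher than the other 3 enriched wild types and overlapped the mutants. Ect2 rose to 1.14 times the wild type level (log2 fold change 0.18 ± 0.054, adjusted p = 0.0179, edgeR quasi-likelihood test), with 0.14 ± 0.054 on the moderate diet (adjusted p = 0.129). Over both diets it was 0.16 ± 0.038 (adjusted p = 0.00412), past the threshold in all 28 alternatives. In a fit of the 2 enriched groups alone the adjusted p was 0.0835. Anln (anillin), which organises the contractile ring, and the microtubule bundler Prc1 had log2 fold changes of 0.13 ± 0.077 and 0.12 ± 0.071 on the enriched diet, and the midzone kinesins Kif20a and Kif23 had -0.12 ± 0.085 and -0.21 ± 0.13. The moderate values of these 4 were 0.045, -0.011, -0.12 and -0.20. Kif23 had 78.7, 86.9, 105 and 131 CPM in the enriched mutants, against 116, 126, 109 and 118 CPM in the enriched wild types. Enriched mutant 4 stood above all enriched wild types, and without it the enriched comparison of Kif23 did pass (adjusted p = 0.0202).

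Top2a, the topoisomerase that untangles sister chromatids, had 889, 886, 979.9 and 987 CPM in the enriched mutants, against 775, 900.0, 692 and 789 CPM in the enriched wild types. Its log2 fold change of 0.23 ± 0.093 had an adjusted p of 0.065 in the edgeR quasi-likelihood test, just outside the threshold. The call was gained by leaving out any one of enriched mutant 1, enriched wild type 2, moderate mutants 2 and 3 and moderate wild type 4, with adjusted p-values down to 0.0193. The moderate Top2a value was 0.031 ± 0.091.

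Groups did not overlap for 4 mitosis genes on the enriched diet, 1 higher (Psrc1) and 3 lower (Birc5, Cdca8 and Cdc20) in mutants, where 11.2% of all genes were higher and 12.5% lower without overlap. On the moderate diet this held for 2, both higher (Bub1 and Psrc1), and for none lower, against 8.5% and 7.06% of all genes. Across both diets no mitosis gene had all 8 mutants on one side of all 8 wild types, against 2.51% of all genes higher and 1.93% lower.

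In each mutant group 1 library was above its group mean, which includes that library, for nearly all mitosis genes. Moderate mutant 3 was above its group mean for 34 of the 36 genes, and its mean log2 deviation from the 16-library mean over the genes was 0.15, against -0.074 to -0.043 in the other 3 moderate mutants. Enriched mutant 3 was above its group mean for 32 genes, with 0.11, against -0.12 to 0.0025 in the other enriched mutants. Enriched mutant 2 went the other way, below its group mean for 33 of the 36 genes. The 4 enriched wild types lay between -0.092 and 0.066, and the 4 moderate wild types between 0.016 and 0.033. Moderate mutant 3 and enriched mutant 3 had the lowest mean log2 deviation of the hypoxia genes in their groups, -0.11 and 0.84. Enriched mutant 3 also held the highest summed decidual markers, 191 CPM against at most 8.12 CPM in the wild types. The part of these differences in the mitosis results was not tested, beyond the counts without those libraries given above.

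Mitosis genes with short and long transcripts differed in direction on the enriched diet. Transcript length was taken as the median over the basic protein-coding transcripts of each gene, and it ran from 720 bases (Pttg1) to 11130 bases (Cenpf). Of the 18 genes with transcripts of up to 2610 bases, 17 had a negative log2 fold change in enriched mutants (the exception was Psrc1), against 7 of the 18 longer ones, and the medians were -0.14 and 0.078. Spearman's rho between length and log2 fold change was 0.54 across the 36 genes and 0.18 across 14010 genes. These are correlations across genes, which share the same libraries and are not independent replicates. On the moderate diet rho was -0.077 across the 36 genes and -0.11 across all genes. Single libraries differed in this respect: over all genes, the correlation of a library's deviation from the 16-library mean with length was -0.45 in enriched wild type 1, -0.37 in enriched wild type 3 and -0.26 in moderate mutant 2, and between -0.083 and 0.26 in the other 13. Cenpe and Cenpf, the genes with the longest transcripts, were lowest in moderate mutant 2 and enriched wild type 3.

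With the trend of each library on transcript length removed, an alternative chosen after seeing the data, rho over all genes lay between -0.018 and 0.0027 in the 6 comparisons and 0.31 across the 36 genes on the enriched diet. There, 7 mitosis genes passed, 3 higher and 4 lower, without Cenpa (-0.089 ± 0.051 on the log2 scale, adjusted p = 0.191, edgeR) and Cdc20 (-0.18 ± 0.070, adjusted p = 0.0625). After the correction 3 passed on the moderate diet, all higher in mutants: Psrc1 (0.31 ± 0.092, adjusted p = 0.0423), Bub1 (0.29 ± 0.078, adjusted p = 0.0255) and Ect2 (0.17 ± 0.050, adjusted p = 0.0458). After this correction the same 3 genes were called higher on both diets. The share of all genes called in the corrected fit is not given here, so these counts have no background beside them.

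**Figure D4:**
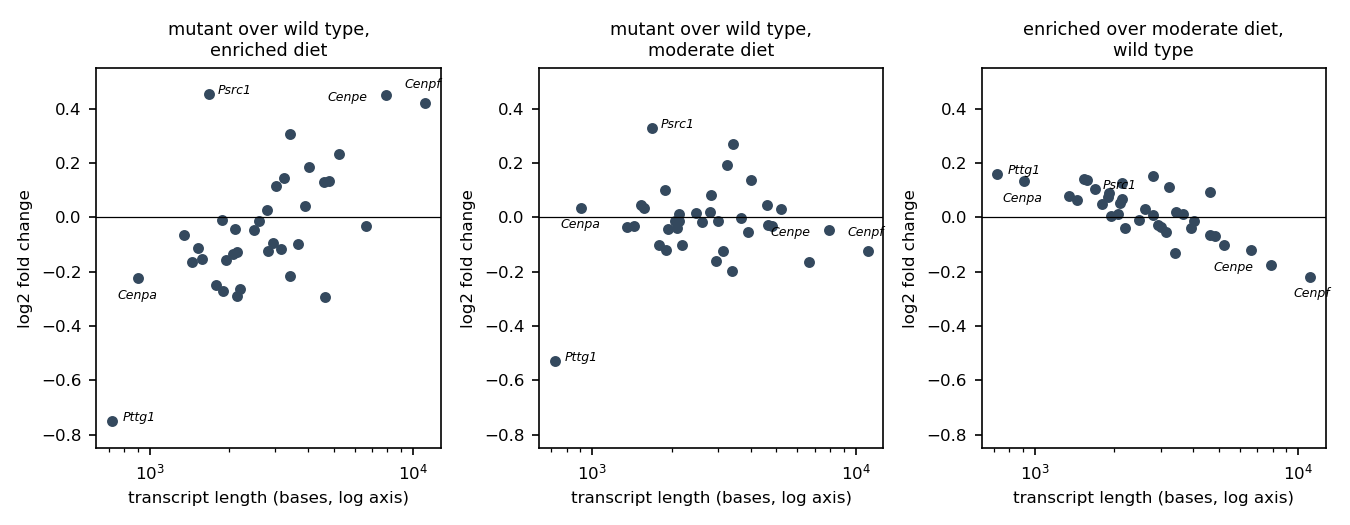
Log2 fold change of the 36 mitosis genes (vertical axis) against transcript length in bases (horizontal log axis), for mutants over wild types on the enriched diet (left) and the moderate diet (middle), and for the enriched over the moderate diet in wild types (right). Values rise with length on the left (Spearman's rho 0.54), show little trend in the middle (-0.077) and decline on the right (-0.73). The left and right panels share the enriched wild types, on opposite sides of the comparison.

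No mitosis gene passed for diet in either genotype, as no gene at all did: the share called was 0% of all genes in mutants and 0% in wild types (edgeR quasi-likelihood test, adjusted p under 0.05). The smallest adjusted p among the 36 was 0.442 in mutants and 0.967 in wild types. At an unadjusted p under 0.05, 2 of the 36 genes passed in mutants (5.56%, against 10.8% of all genes) and 0 in wild types (against 2.44%), and with DESeq2 or limma-voom 0 of the 36 passed after adjustment in both. The 2 were Psrc1, with 71.2, 69.7, 66.9 and 88.0 CPM in enriched mutants against 63.7, 63.9, 52.9 and 65.4 CPM in moderate mutants and a log2 fold change of 0.23 ± 0.087, and Plk1, with a log2 fold change of -0.20 ± 0.083. Psrc1 was also the one mitosis gene whose enriched and moderate mutants did not overlap, where 1.46% of all genes were higher and 1.74% lower without overlap. In wild types no mitosis gene separated the diets in this way, against 1.47% of all genes higher and 1.05% lower. The median log2 fold change for diet was -0.027 in mutants and 0.017 in wild types, against -0.0052 and 0.0025 over all genes. In wild types the relation with transcript length ran the other way, with rho of -0.73 across the 36 genes and -0.46 across all genes. The enriched wild types enter this comparison and the genotype comparison on the enriched diet on opposite sides, so the opposite signs are not independent.

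The genotype effect was not shown to differ between diets for any mitosis gene. In the test of the difference between both genotype effects, 0 of the 36 genes and 0% of all genes passed (edgeR quasi-likelihood test, DESeq2 and limma-voom alike), and at an unadjusted p under 0.05 it was 3 of the 36 (8.33%, against 9.65% of all genes). These 3, Mad2l1, Birc5 and Cenpa, had differences of -0.27 ± 0.12, -0.28 ± 0.12 and -0.26 ± 0.11 on the log2 scale (enriched minus moderate, adjusted p = 0.501, 0.501 and 0.501). For Psrc1 the difference was 0.13 ± 0.12 and for Bub1 0.037 ± 0.11.

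Neighbouring parts of the cell cycle gave the following counts. Beside them, 31.2% of all genes passed on the enriched diet (14.4% higher and 16.8% lower) and 7.62% on the moderate diet (4.79% and 2.83%). Of 39 other kinetochore and checkpoint genes, 4 were higher and 11 lower in enriched mutants and 0 passed on the moderate diet, with Mad1l1, the kinetochore partner of MAD2, at -0.40 ± 0.091 and -0.27 ± 0.089 on the log2 scale (adjusted p = 0.0041 and 0.0772, edgeR). Zw10, which recruits dynein to kinetochores, was at -0.35 ± 0.078 and -0.23 ± 0.077, and Mis12, a kinetochore scaffold, at -0.35 ± 0.078 and -0.20 ± 0.077. Of 36 other spindle, kinesin and cytokinesis genes, 6 were higher and 5 lower on the enriched diet and 1 and 1 on the moderate diet. The cytoskeletal linker Gas2l3 was the largest of them, at 0.73 ± 0.13 and 0.52 ± 0.13, and passed on both diets (adjusted p = 0.000977 and 0.0192). The kinesin Kif18a was at 0.44 ± 0.081 and 0.16 ± 0.080, and Gtse1, which is expressed in G2 and S phase, fell by 0.25 and 0.37 (adjusted p = 0.0495 and 0.0211).

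Condensin and cohesin genes, which fold chromosomes and hold sister chromatids, had 6 of 18 higher and 0 lower on the enriched diet, with a median log2 fold change of 0.19. The share higher was 33.3%, against 14.4% of all genes, and 1 was higher on the moderate diet. The named genes were Stag2 (0.34 ± 0.060 enriched, 0.18 ± 0.059 moderate), Ncaph2 (0.31 ± 0.079 and 0.37 ± 0.077) and Ncapg (0.24 ± 0.067 and 0.15 ± 0.066). Anaphase promoting complex genes had 0 of 17 higher and 5 lower (29.4%, against 16.8% of all genes) on the enriched diet (median -0.20). On the moderate diet 0 were called. Anapc4 was at -0.21 ± 0.073 and -0.13 ± 0.071, Cdc26 at -0.43 ± 0.10 and -0.019 ± 0.10 and Cdc23 at -0.22 ± 0.074 and -0.094 ± 0.073. Of 24 cell cycle transcription regulators, 2 were higher and 5 lower on the enriched diet and 0 passed on the moderate diet. Among them E2f3, an activator of S phase genes, was at -0.34 ± 0.074 and -0.19 ± 0.073, Nfyc, a subunit of the CCAAT-binding factor NF-Y, at -0.45 ± 0.087 and -0.16 ± 0.084, and Rb1, which restrains E2F, at 0.53 ± 0.14 and 0.35 ± 0.14.

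Genes of G1 and S phase had more calls than mitosis genes on the enriched diet, 4 of 42 higher and 22 lower. These were 9.52% and 52.4%, against 14.4% and 16.8% of all genes, and 2 were higher on the moderate diet. Their median log2 fold change was -0.20 on the enriched diet and -0.037 on the moderate diet, against -0.080 and -0.016 for mitosis genes. The flap endonuclease Fen1 was at -0.63 ± 0.099 and -0.31 ± 0.096, thymidylate synthase (Tyms), which needs a folate cofactor, at -0.64 ± 0.10 and -0.25 ± 0.097, and the replication licensing factor Cdc6 at -0.48 ± 0.088 and -0.25 ± 0.086, with adjusted p-values of 0.000435, 0.000455 and 0.00124 on the enriched diet (edgeR). Of 18 CDK inhibitors and related brakes, 3 were higher and 1 lower on the enriched diet, and 2 were higher on the moderate diet. Ccng2, a cyclin associated with arrest, was at 1.62 ± 0.23 and 1.34 ± 0.23 (adjusted p = 0.000261 and 0.00192). The CDK inhibitors Cdkn1a (p21) and Cdkn1b (p27) were at 0.93 ± 0.20 and 0.59 ± 0.12 on the enriched diet (adjusted p = 0.00277 and 0.00182) and at 0.58 ± 0.20 and 0.27 ± 0.11 on the moderate diet (adjusted p = 0.0874 and 0.158). Differences between the lists were not tested, nor was the part of transcript length in their counts. For diet in wild types, median log2 fold changes were -0.091 for condensin and cohesin genes and 0.071 for anaphase promoting complex genes. The median of G1 and S phase genes was 0.046 there, and 0 genes of these lists were called. That comparison and the genotype comparison on the enriched diet share the enriched wild types, on opposite sides.

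**Figure D5:**
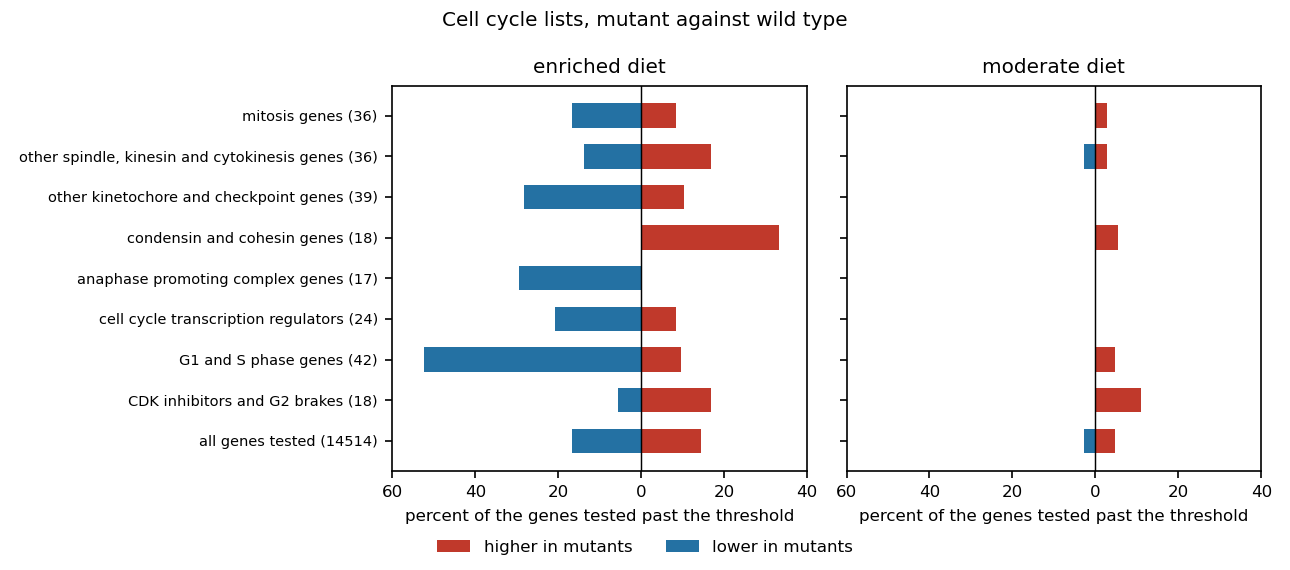
Percent of the genes tested in each cell cycle list that were higher (red, to the right) or lower (blue, to the left) in mutants than in wild types at an adjusted p under 0.05 (edgeR), on the enriched diet (left panel) and the moderate diet (right panel), with the number of genes tested in brackets and all 14514 genes in the last row. Mitosis genes reach 8.33% higher and 16.7% lower on the enriched diet, against 14.4% and 16.8% of all genes.

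For 7 of the 36 genes, exons overlapped those of another counted gene, and since the library kit kept no strand information their counts are uncertain to that extent. They were Ccna2 (with Exosc9), Cdca8 (with 9930104L06Rik), Nusap1 (with Oip5), Cdc20 (with Elovl1), Ube2c (with Tnnc2), Kif20a (with Cdc23) and Prc1 (with Rccd1). The overlap of Cdc20 spanned 53 bases of exon, the smallest of the 7. The 36 genes lay on 15 chromosomes, at most 7 of them, those on chromosome 2, on the same one.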

How the data were processed

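RNA of 16 embryo heads was sequenced, 4 libraries in each diet and genotype group. Per the labels' protocols, the kit was TruSeq version 2, which keeps no strand information, with 1 µg of input RNA. Per the submitters' processing notes, the authors used FastQC 0.11.5, TopHat2 2.1.1 on build mm10, SAMtools 1.8, HTSeq 0.9.1 and DESeq2 1.22.2. The counting mode, strand option and annotation are not stated in these sources. Deposited by the authors were raw counts of reads for each gene symbol, without normalization, and 5 summary lines of the counter were left out of totals and tests.

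Counts were scaled by trimmed means of M values and fitted with edgeR 4.0.16 (R 4.3.3) to the 16 libraries together (group means, plus labelled sex as covariate). Genes reaching 10 counts in 4 or more libraries were tested by quasi-likelihood, with Benjamini-Hochberg adjustment over all 14514 and a threshold of 0.05. CPM are counts divided by the scaled library total, and SE is the size of the log2 fold change divided by the square root of F. Alternatives were limma-voom (3.58.1), DESeq2 (1.42.0), other scalings, filters, sex covariates, sample sets and a replicate block, and, chosen after seeing the data, a correction for transcript length. The steps were tested on simulated counts, in which 50 genes drawn from all genes tested were changed by each fold. Of 1.25-fold changes, 6% were recovered on the enriched diet and 10% on the moderate diet. Of 1.5-fold changes, 48% and 52% were recovered. Gene positions and lengths come from GENCODE vM21 and promoters from RefSeq, both of the same build. Replicates of a group differed beyond sampling noise (chi-square per degree of freedom 6.82 to 70.9 over 24 pairs). The mitosis genes, related lists and tests were chosen with earlier results of these data known. Text names all 36 mitosis genes, and of each related list up to 3 genes with the smallest p for genotype over both diets.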

Additional observations from a re-analysis of the deposited data

Results flagged for a closer look

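Of 148 sets of 4 libraries examined (the 36 mitosis genes and their mean score in each group), 11 held a library far from the other 3 by Dixon's ratio (critical value 0.829), where chance gives about 1 in 20, or 7.4. In 4 of the 11 the library was moderate mutant 3. Its mean log2 deviation over the 36 genes was 0.15, against -0.074 to -0.043 in the other moderate mutants. It had 217 CPM against 165 to 172 CPM for the midzone kinesin Kif20a, 133 CPM against 101 to 104 CPM for its relative Kif23 and 52.9 CPM against 63.7 to 65.4 CPM for Psrc1, the one of the 3 in which it was low. Without moderate mutant 3 the counts of mitosis genes past the threshold were 9 on the enriched diet, 2 on the moderate diet and 10 over both diets, while of all genes 4559, 2107 and 5563 passed, against 4524, 1106 and 5202 with all 16 libraries.

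In moderate wild type 3, Cenpe was at 189.6 CPM against 131 to 139.5 CPM in the other 3, Incenp at 241 CPM against 209.7 to 213 CPM and Kif20a at 203 CPM against 193 to 195 CPM. Low values stood apart for Prc1 in moderate wild type 1 (158 CPM against 164 CPM in each of the others) and for Espl1 in moderate wild type 2 (160.3 CPM against 171 to 172 CPM). On the enriched diet, Tpx2 was high in enriched mutant 3 (376 CPM against 324 to 332 CPM) and Ect2 in enriched wild type 2 (182 CPM against 154 to 157 CPM).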

How the results depend on the processing

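No direction of a mitosis gene's fold change that had passed the test was reversed under any of the alternatives. Of 6192 refitted values of single genes, 6018 kept their side of the threshold or stayed within their spread, 125 lost a call and 49 gained one. Most of the 6192 belonged to genes and comparisons without a call, which had none to lose, so the 6018 do not measure how firm the calls were. On the enriched diet the count of 9 became 4 when only the groups compared were fitted. With no count filter Plk1, Aurka, Cenpa and Cdc20 were lost there and Top2a was gained. With no sex covariate Aurka, Mad2l1 and Cenpa were lost, and at an adjusted p of 0.1 Top2a, Cdca8 and Cdc25c were gained. On the moderate diet the count of 1 became 2 with median-of-ratios scaling, 3 with DESeq2, 2 with no count filter, 2 at an adjusted p of 0.1, 0 without the 3 libraries of contradicted sex label and 3 with the correction for transcript length. With DESeq2 the count over all genes on the moderate diet rose as well, to 1572 from 1106 with edgeR. Counts in this section without one over all genes have no background beside them. Over both diets the count of 8 became 5 with no count filter, 13 at 0.1 and 4 without the contradicted libraries. The cause was not tested. Leaving out 1 library gave 3 to 10 calls on the enriched diet (3 without enriched mutant 2 or 4 or enriched wild type 1 or 3), 0 to 2 on the moderate diet (0 without moderate mutant 1 or 4 or any moderate wild type) and 3 to 10 over both diets (3 without enriched wild type 3 or moderate mutant 1), and 0 for diet and for the difference between diets. Medians over the genes then ran over -0.083 to -0.016, -0.052 to 0.020 and -0.054 to -0.0015 for genotype, -0.065 to 0.042 for diet in mutants, -0.014 to 0.043 for diet in wild types and -0.065 to 0.030 for the difference. Over all genes, the moderate count of 1106 became 719 with only the groups compared, 1906 at 0.1 and 105 without the contradicted libraries, and leaving out 1 library gave 538 (without moderate mutant 1) to 2107 (without moderate mutant 3); the count of 5202 over both diets became 2964 without them. With 4 libraries a group, the median SE of a mitosis gene's log2 fold change on the enriched diet was 0.083, which limits what could be detected.

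With the replicate number as a block, 10 mitosis genes passed on the enriched diet, 1 on the moderate diet and 8 over both. Cdca8 was gained on the enriched diet (adjusted p = 0.041), and over both diets Birc5 was gained (adjusted p = 0.0207) and Nusap1 lost (adjusted p = 0.0574). The numbers share only a label: of 24 same-numbered pairs of libraries 8 correlated above 0.1 (range -0.29 to 0.51), and 6 of 16 libraries correlated best with their own number.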

Other observations

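Levels of other cell types' markers in the same libraries were as follows, where 14.4% of all genes were higher and 16.8% lower in enriched mutants, and 4.79% and 2.83% in moderate mutants. Of 14 endothelial markers, 2 were higher and 5 lower in enriched mutants and 2 higher in moderate mutants. The receptor Flt1 was at 0.80 ± 0.14 on the enriched diet and 0.83 ± 0.14 on the moderate diet (log2 fold change, edgeR) and the junction protein Pecam1 at 0.59 ± 0.13 on the enriched diet and 0.53 ± 0.13 on the moderate diet, while Etv2, an early endothelial and blood factor, was at -1.99 ± 0.41 on the enriched diet and -0.76 ± 0.37 on the moderate diet. Of 13 erythroid markers tested, 4 were lower in enriched mutants, 2 in moderate mutants and 8 over both diets (18.5% of all genes), with Epor, the erythropoietin receptor, at -1.03 ± 0.29 on the enriched diet and -0.97 ± 0.28 on the moderate diet. Of 7 cardiomyocyte markers tested, 1 was lower on each diet (Tbx5), and their summed level was at most 9.68 CPM in any library. Early neuron markers (14 tested) and yolk sac markers (9 tested) had 0 called on either diet. Of the decidual markers, Prl3b1 was lower in mutants on both diets (-3.29 ± 0.48 on the enriched diet and -1.79 ± 0.41 on the moderate diet) at 2 to 58 counts per library. Prl8a2 passed as higher on the enriched diet, with 0.204, 0.519, 189 and 3.46 CPM in the enriched mutants, against 0.144, 0.201, 0.117 and 0.0610 CPM in the enriched wild types, so that its level there came mainly from enriched mutant 3. Their part in the mitosis results was not tested.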
